A study of Mus musculus with 16 samples.

Results

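The genes described here encode the proteins of the mitochondrial ribosome. They were taken as the protein-coding genes of the mouse annotation whose symbol starts with Mrpl or Mrps and a number, which gave 78 of the 54193 genes summed from the files. Of these, 49 carry an Mrpl symbol (large subunit) and 29 an Mrps symbol (small subunit), and all 78 were among the 14838 genes that passed the filter on low counts. RNA-seq had been done on cultured mouse brain microvascular endothelial cells (mBMEC) from adult mice aged 8 to 10 weeks that carry a floxed Pdcd10 (Ccm3) allele and Cdh5(PAC)-CreERT2, a Cre recombinase driven by an endothelial promoter and switched on by 4-hydroxytamoxifen (4-OHT). Ccm3 is one of the genes whose loss gives cerebral cavernous malformations. The WT cultures received no 4-OHT and the KO cultures did, so that 4-OHT and genotype cannot be told apart. Cells were left untreated (WT, n = 3; KO, n = 3) or kept for 24 h in 10 µM propranolol, a beta blocker (WT+P, n = 2; KO+P, n = 3), or in 100 nM rapamycin, an inhibitor of the kinase mTOR (WT+R, n = 2; KO+R, n = 3). Each culture came from the pooled brains of several mice and had been selected with puromycin, and the 16 libraries held between 18.83 and 26.2 M counts.

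Mitochondria keep a ribosome of their own, which translates the few mRNAs of mitochondrial DNA into core subunits of the respiratory chain and of ATP synthase. Its rRNAs are transcribed in the organelle, whereas all its proteins are encoded in the nucleus, translated on cytosolic ribosomes and imported. The small subunit reads the mRNA, and the large subunit joins the amino acids and passes the nascent chain to the inner membrane. Some of its proteins have bacterial counterparts and others are specific to mitochondria. Brain endothelial cells are known for a high mitochondrial content. Rapamycin acts on mTORC1, a known regulator of ribosome production and of the translation of ribosomal protein mRNAs. With poly(A) RNA from whole cultures, fewer cells of a type and less RNA per cell cannot be told apart.

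The genes lay on 17 chromosomes and many of them shared a start region with a neighbour. In 29 of the 78 (37.2%), the start lay within 1000 bases of the start of a protein-coding gene on the opposite strand, against 10.2% of the 21770 protein-coding genes. The large-subunit gene Mrpl46 and the small-subunit gene Mrps11 formed such a pair with each other, with starts 412 bases apart. Mrpl49 started 3 bases from Fau, which encodes a cytosolic ribosomal protein fused to a ubiquitin-like protein, Mrps12 started 288 bases from Sars2, the mitochondrial seryl-tRNA synthetase, and Mrpl36 started 56 bases from Ndufs6, a subunit of respiratory complex I.

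RefSeq promoters (GRCm38.p6, 250 bases before to 50 after the start) were found for 69 of the 78 genes and searched on both strands for 4 motifs. The NRF1 motif (GCGCA and GCGC with any base between them) was present in 13 of the 69 (18.8%, against 5.19% of 27025 genes with a promoter), the ETS or GABP motif CCGGAAGT in 12 (17.4%, against 4.31%) and the YY1 motif AAGATGGC in 12 (17.4%, against 3.19%). NRF1 and GABP are known regulators of nuclear genes for mitochondrial proteins. The E-box CACGTG, bound by MYC and related factors, was present in 5 (7.25%, against 8.09%), and 33 genes held none of the 4. Unlike the 78 genes, the 27025 genes were not limited to protein-coding or expressed genes, so the shares compare unlike sets. NRF1 matches fell in 10 of 43 large and 3 of 26 small subunit promoters, and YY1 matches in 6 of each. A match is a description of letters in this window and not of a bound site. The stretches below belong to genes described further on. They show how the motif, in capitals, sits upstream of the start, on the strand of the gene, with coordinates in GRCm38.p6.
Mrpl12, NRF1, chr11:120484546-120484575, plus strand: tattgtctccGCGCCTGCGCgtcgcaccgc
Mrpl17, NRF1, chr7:105811117-105811146, minus strand: aggctctgatGCGCACGCGCaaacgcggta
Mrpl30, NRF1, chr1:37890384-37890413, plus strand: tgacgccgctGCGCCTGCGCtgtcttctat
Mrpl44, NRF1, chr1:79775973-79776002, plus strand: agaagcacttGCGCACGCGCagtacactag
Mrpl27, ETS or GABP, chr11:94653725-94653754, plus strand: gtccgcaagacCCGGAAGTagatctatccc
Mrps27, ETS or GABP, chr13:99344726-99344755, plus strand: gtggtaggaccACTTCCGGcggaggcgggc
Mrps18c, E-box, chr5:100798584-100798613, plus strand: gcagccccgggtCACGTGacttccggcccg
The matches in Mrpl12, Mrpl30 and Mrps27 are to the reverse complement of the motif as spelled out above. In Mrps18c the E-box was followed directly by an ETS match on the other strand, in lower case here. Mrpl45, whose protein anchors the ribosome at the inner membrane, held 2 NRF1 matches in its promoter, 120 and 38 bases before the start.

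The labels were checked against the deleted gene and against cell type markers. Pdcd10 was at 9.72, 11 and 9.73 CPM (counts scaled to a library total) in KO replicates 1 to 3, between 13.1 and 16.7 in KO+P and between 7.83 and 9.53 in KO+R. It was at 31.2 and 47 in WT replicates 2 and 3 and between 27.7 and 60.8 in WT+P and WT+R. The library labelled WT replicate 1 was at 11.5 CPM, within the range of the KO cultures. The main medians and calls of the 78 genes that use it are therefore also given without it. The 10 endothelial markers summed to between 6003 and 12024 TPM (transcript abundance per length, scaled to a library total), with Cldn5, which encodes a tight junction protein, at up to 2850. Mfsd2a, a marker of the blood-brain barrier in vivo, was low in all of them, between 0 and 2.4 TPM, and highest in WT+P replicate 1 (2.09) and in KO+P replicates 1 and 2 (2.4 and 2.07). Of the 10 mural cell markers, 8 passed the filter, and they summed to between 62.9 and 2584 TPM. Their most abundant gene was Tagln, whereas the defining pericyte markers Pdgfrb and Rgs5 did not exceed 1.77 and 0.636 TPM. Astrocyte, oligodendrocyte and neuronal markers summed to at most 5, 1.1 and 0.9 TPM. The 7 markers of microglia and macrophages summed to between 3.1 and 41.6 TPM, and their most abundant gene was Cd68, which encodes a lysosomal protein. Cd68 was at 7.25, 22 and 14.4 TPM in WT, 9.21 and 19.4 in WT+P, 1.68 and 7.53 in WT+R, 17.6, 27.8 and 41 in KO, 24.4, 35.1 and 32.5 in KO+P and 4.05, 10 and 15.7 in KO+R, while Cx3cr1, Csf1r, Tmem119 and Aif1 did not exceed 1.32 TPM. The 6 fibroblast markers summed to between 2 and 60.1 TPM, with Col1a1 highest in replicate 3, at 15 TPM in WT, 21.4 in KO, 8.99 in KO+P and 28.4 in KO+R, against at most 5.71 in all other libraries. The part of these markers in the results below was not tested.

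The mitochondrial ribosomal protein genes were expressed at moderate and stable levels. Expression per transcript length, as the authors' TPM, had a median of 63.8 TPM over the 78 genes. It was 64.8 in the large and 60.1 in the small subunit. The mean over all libraries was between 10 and 100 TPM in 60 genes, above 100 in 15 and below 10 in 3. The 3 highest were Mrpl33 at 553 TPM, Mrps21 at 342 and Mrpl52 at 256, which code for small proteins of the large, the small and the large subunit, respectively. The 3 lowest were Mrpl1 at 1.87 TPM, the protein of the mobile L1 stalk, Mrpl19 at 8.01 and Mrpl23 at 9.66, a protein beside the exit tunnel. The genes had a median of 750 counts per library, so that counting error was small for nearly all of them.

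**Figure D1:**
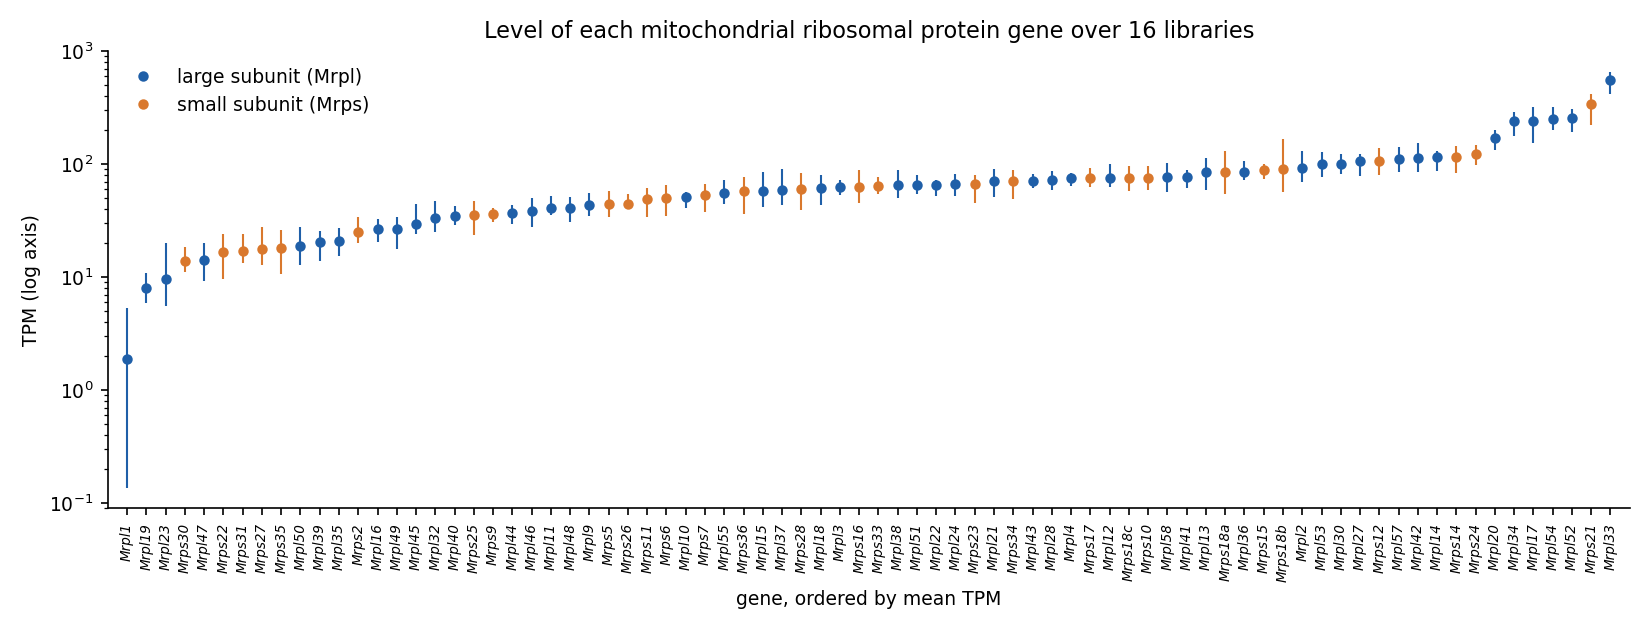
Mean TPM (points, log axis) and range over the 16 libraries (lines) for each of the 78 genes, ordered by mean, with large subunit genes in blue and small subunit genes in orange. Most genes lie between 10 and 100 TPM with narrow ranges, and Mrpl1 at the far left spans the widest range.

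The spread within groups was likewise narrow. The residual SD of log2 CPM had a median of 0.19 in both subunits. The steadiest genes were Mrpl12, a protein of the L7/L12 stalk that recruits translation factors (0.09), Mrpl16 (0.09) and Mrps9 (0.10). Mrpl12 was between 46.6 and 64.4 CPM in all 16 libraries. The least steady were Mrpl1 (1.6), Mrpl23 (0.51) and Mrps18b (0.33). Mrpl1 was at 2.63, 5.24 and 1.33 CPM in KO and at 0.159, 4.31 and 10.2 CPM in KO+R, with between 3 and 228 counts per library, so its fold changes carried standard errors above 1 log2 unit. The values of Mrpl23 are uncertain, because the processed pseudogene Mrpl23-ps1 was assigned 615.71 counts per library on average against 68 for the gene itself. The median biological coefficient of variation was 15.4% over the 78 genes and 22.1% over all genes tested.

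Of the total sum of squares of log2 CPM of these genes, group took 32.5% and replicate number 21.2%, each adjusted for the other, and 46.6% was residual, against 39.8%, 34.8% and 23.8% over all genes tested. The shares do not add to 100% because the groups are of unequal size. With 6 group means fitted to 16 libraries, a sizeable share falls to group even without any effect. The share of group is therefore no measure of an effect of genotype or drug. Over all genes, libraries with the same number deviated together from their group means, but over the 78 genes their deviations correlated by between −0.69 and 0.80 (median 0.17), below 0 in 6 of 17 pairs. Differences between libraries of one number, called a culture below, are given beside those between groups. The pairing is read from the values of all genes, since the labels do not state it.

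The proportion of large to small subunit mRNA stayed in a narrow range as a ratio of summed TPM, but the order of the groups depended on the measure. The summed TPM of the large subunit over that of the small subunit was between 2.02 and 2.16 in every library. It was 2.09 ± 0.06 in WT (SD, n = 3), 2.16 ± 0.01 in KO (n = 3), 2.10 ± 0.02 in KO+P (n = 3) and 2.14 ± 0.01 in KO+R (n = 3), with 2.07 and 2.09 in WT+P and 2.13 and 2.16 in WT+R. All WT, WT+P and KO+P libraries lay below all KO libraries, by 0.01 at the nearest, whereas the rapamycin groups overlapped with KO. The pooled SD within groups was 0.03. WT and KO overlapped when only protein_coding transcripts were summed and when CPM took the place of TPM. KO and KO+P overlapped with protein_coding transcripts and when Mrps30 and Mrps18a, which are named for the small subunit but sit in the large one, were counted as large. Counting both as large took the median ratio over libraries from 2.13 to 2.28. As a ratio of median genes in place of sums, KO was at 1.05, 1.06 and 1.07, below all libraries of KO+R (1.24, 1.15 and 1.16) and WT+R (1.31 and 1.15), while WT, at 1.03, 0.978 and 1.16, overlapped with KO and with both rapamycin groups. The number of genes stands in a ratio of 1.69. The 5 most abundant large subunit genes held 36.8% of the large subunit's TPM.

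**Figure D2:**
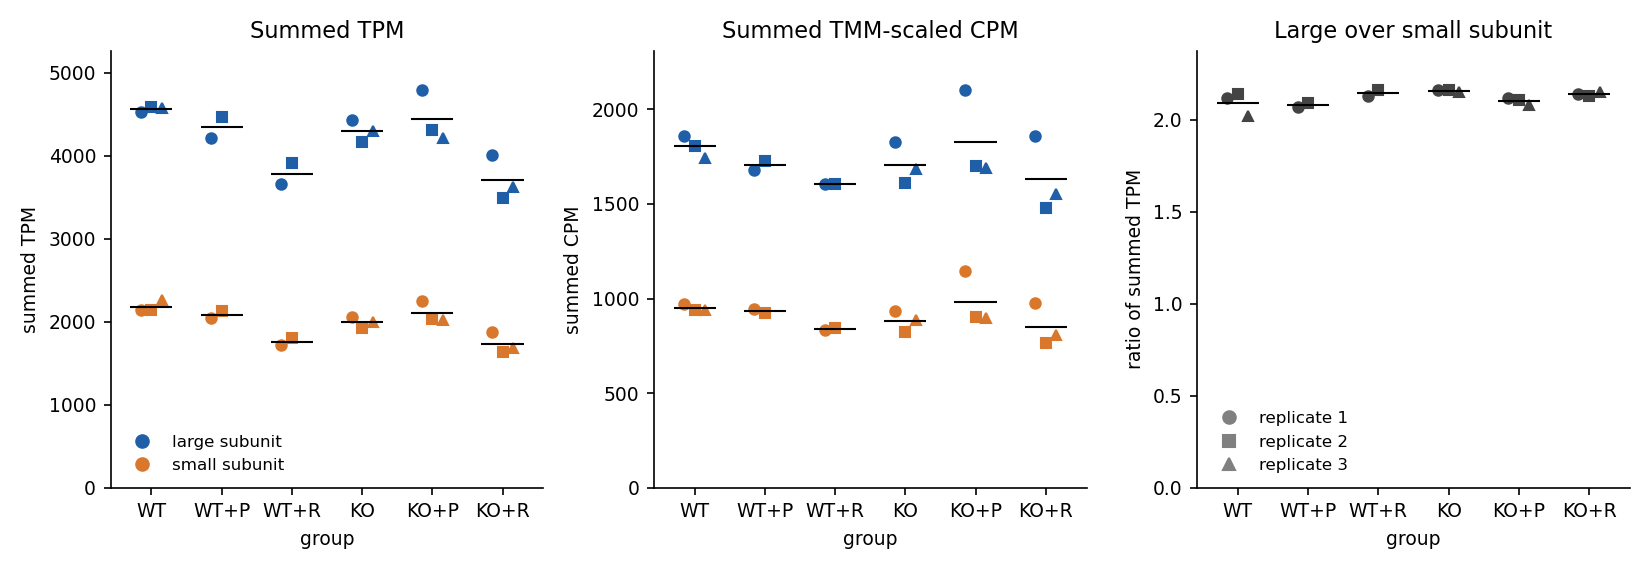
Summed TPM (left) and summed CPM scaled by trimmed mean of M-values (middle) of the large (blue) and small (orange) subunit genes, and the ratio of the 2 TPM sums (right), in each library by group, with replicates as symbols and group means as bars. The rapamycin libraries lie lowest on the TPM scale, the CPM sums of WT+R lie below those of WT and WT+P whereas KO+R overlaps with KO, and the ratio stays between 2.02 and 2.16.

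The first comparison asked what loss of Ccm3 did to these genes. None of the 78 was called between KO and WT at an adjusted p under 0.05 with edgeR's quasi-likelihood test or with DESeq2 (with edgeR, 0.00674% of all genes were called, a single gene). At an unadjusted p under 0.05, 0 were higher and 2 lower (3.3% and 2.77% of all genes). The log2 fold changes leaned downward. Their median was −0.10 against −0.01 over all genes, and 18 of 78 were above 0 (48.8% of all genes). Between libraries of one group, the median deviation of the 78 genes had a pooled SD of 0.13 log2 units. The medians of this and the later comparisons are to be read beside that spread. Counts of genes above 0 are descriptions, since genes are not independent replicates. The medians of the large and small subunits were −0.09 and −0.12. In 13 genes all KO libraries lay below all WT libraries and in 0 above (6.5% and 6.69% of all genes). Within cultures 1 to 3 the median difference was −0.05, −0.18 and −0.06. Without the library labelled WT replicate 1 the median was −0.09, again with 0 calls, and the large and small subunits were at −0.08 and −0.09. The median over the 78 genes was −0.16 without KO replicate 1 and −0.05 without KO replicate 2.

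The smallest p-values belonged to Mrpl37, Mrps30 and Mrps27. Mrpl37, a large subunit protein specific to mitochondria, was at 50.1, 51.4 and 68.9 CPM in WT and at 47.5, 45.7 and 48.6 in KO, and the groups did not overlap (log2 fold change −0.27 ± 0.12 (SE), edgeR adjusted p = 0.775). Mrps30 was at 29.3, 26.7 and 32.1 CPM in WT and at 25.2, 22.6 and 24.6 in KO (−0.28 ± 0.13, edgeR adjusted p = 0.789). Mrps27, a pentatricopeptide repeat protein of the small subunit, was at 23.2, 20.5 and 26.8 CPM in WT and at 16.1, 15.4 and 20.7 in KO (−0.43 ± 0.22, edgeR adjusted p = 0.887). The highest KO value of Mrps27, from replicate 3, was just above the lowest WT value, so its groups overlapped.

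**Figure D3:**
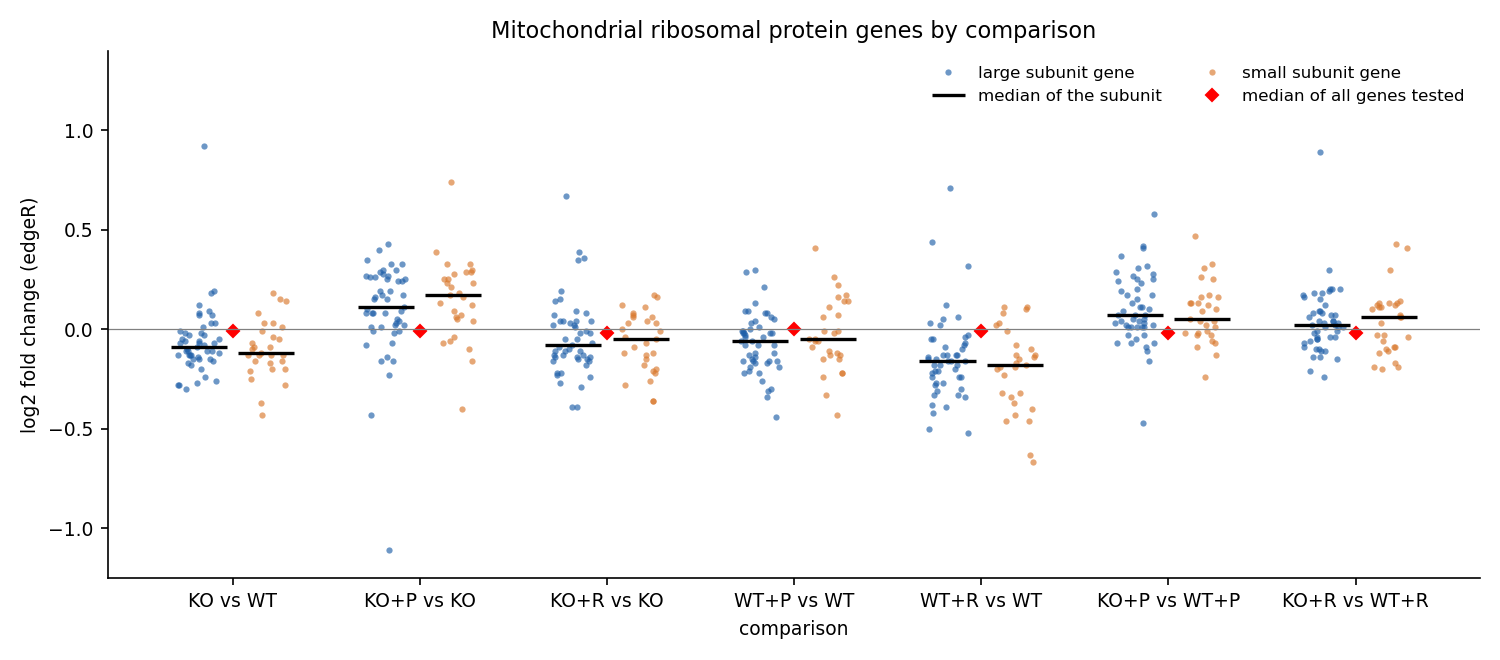
log2 fold change (edgeR) of each of the 78 genes in the 7 comparisons, with large subunit genes in blue and small subunit genes in orange, bars at the median of each subunit and red diamonds at the median of all genes tested. Both subunits lie side by side in each comparison, lowest for WT+R vs WT, where the medians are −0.16 and −0.18, and highest for KO+P vs KO, where they are 0.11 and 0.17.

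Rapamycin in WT cells gave a median below 0 in both cultures, although edgeR without the replicate block called no gene. None of the 78 was called between WT+R and WT with edgeR, against 1.48% of all genes (220 genes). DESeq2 called 1, Mrps7, also without WT replicate 1, against 4.57% of all genes and 3.44% without that library. At an unadjusted p under 0.05, 1 gene was higher and 13 were lower (6.18% and 6.47% of all genes). The median log2 fold change was −0.17 (−0.01 over all genes), with 14 of 78 above 0 (48.5% of all genes), and it was −0.16 for the large and −0.18 for the small subunit. In 32 genes both WT+R libraries lay below all WT libraries, and in 3 above (14.7% and 14% of all genes). In culture 1, 65 of 78 genes were lower with rapamycin, with a median difference of −0.20, and in culture 2, 60 of 78 with −0.19. Without the library labelled WT replicate 1 the median was −0.15, with −0.18 for the large and −0.13 for the small subunit, and edgeR called 0 (0.641% of all genes). In WT+R the mural markers summed to 1388 and 2584 TPM, against 91.4, 916 and 246 in WT, and the endothelial markers to 6986 and 7828, against 10183, 8779 and 12024. Neither sum overlapped. The mural sum was mostly Tagln (948 and 2070 TPM in WT+R) and Acta2 (438 and 512). Rgs5 went the other way, at 0.0324 and 0.0168 against 0.12, 0.118 and 0.417 in WT. Without WT replicate 1, 5 of 8 mural and 2 of 10 endothelial markers were above 0. The endothelial marker Emcn was at 1930 and 2100 TPM in WT+R, against 1130, 1270 and 1400 in WT. The part of these markers in the shift was not tested.

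With the replicate number as a block, edgeR called 4 genes lower in WT+R than in WT (2.82% of all genes) and 0 higher (2.97%). Mrps7 (chr11:115494636-115498871 in GRCm39, plus strand) encodes a protein of the head of the small subunit. It was at 62.2, 63.3 and 68.6 CPM in WT and at 46.0 and 48.0 in WT+R. The groups were well apart, and the log2 fold change was −0.46 ± 0.12 (edgeR adjusted p = 0.0748, and 0.0367 with the block). Of its exonic bases, 13.8% also belong to another gene, Gga3 foremost, and these libraries carry no strand. Mrps18a was at 40.2, 31.3 and 42.1 CPM in WT and at 23.9 and 25 in WT+R (−0.63 ± 0.23, edgeR adjusted p = 0.24, and 0.0439 with the block). Mrpl42, a large subunit protein specific to mitochondria, was at 36.4, 32.3 and 34.5 CPM in WT and at 25.3 and 23.5 in WT+R (−0.50 ± 0.19, edgeR adjusted p = 0.254, and 0.0471 with the block). In both genes every WT+R library lay below every WT library. Mrpl17 (chr7:105452413-105460372, minus strand), a large subunit protein near the exit tunnel, was at 88.1, 95.8 and 74.5 CPM in WT and at 53.9 and 66.5 in WT+R (−0.52 ± 0.16, edgeR adjusted p = 0.156, and 0.0475 with the block). None of the 78 was called in this fit once WT replicate 1 was left out (2.95% of all genes), where the log2 fold changes were −0.54 ± 0.13 for Mrps7, −0.67 ± 0.18 for Mrps18a, −0.60 ± 0.16 for Mrpl42 and −0.49 ± 0.16 for Mrpl17 (edgeR adjusted p of 0.0555, 0.0769, 0.0829 and 0.151). DESeq2 with the block called these 4 genes, Mrpl18 and Mrps11 lower and Mrpl24 higher (9.53% of all genes). Without WT replicate 1 it called 4 genes, Mrps7, Mrps18a, Mrpl42 and Mrps22, all lower (6.21% of all genes).

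In KO cells the values with rapamycin differed between cultures. None of the 78 was called between KO+R and KO with edgeR or DESeq2, against 1.7% of all genes with edgeR (252 genes), and 2 were higher and 4 lower at an unadjusted p under 0.05 (6% and 6.55% of all genes). The median log2 fold change was −0.07 (−0.02 over all genes), with 30 of 78 above 0 (46.8% of all genes). On the authors' TPM scale it was −0.21, with 10 of 78 above 0. In 13 genes all KO+R libraries lay below all KO libraries and in 3 above (13.2% and 10.9% of all genes). Within cultures 1 to 3 the median difference was 0.03, −0.13 and −0.13. KO+R replicate 1 was the highest of its group, with a summed CPM of 2836 against 2242 and 2359. The median was −0.16 without it, 0.06 without KO+R replicate 2, −0.02 without KO+R replicate 3, 0 without KO replicate 1 and −0.12 without KO replicate 2. The mural markers summed to 377, 336 and 253 TPM in KO+R against 62.9, 228 and 147 in KO, and the endothelial markers to 7444, 8383 and 9015 against 9787, 9097 and 10506. The microglia and macrophage markers summed to 4.4, 10.6 and 17 TPM in KO+R against 18.3, 28.8 and 41.6 in KO. In none of these sums did the groups overlap. The mural sum in KO+R was again mostly Tagln (262, 285 and 175 TPM) and Acta2 (112, 49.9 and 73), whereas Rgs5 overlapped between the groups. The endothelial marker Kdr was at 99.1, 125 and 135 TPM in KO+R, against 92.9, 75.8 and 102 in KO. The part of these markers in the values of the 78 genes was not tested.

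With the block, edgeR called 1 gene higher and 1 lower in KO+R than in KO (3.17% and 3.77% of all genes). Mrpl18 (chr17:13130034-13135718, minus strand), a protein of the central protuberance of the large subunit, was at 42.1, 41.1 and 39.8 CPM in KO and at 32, 29.9 and 32.3 in KO+R. All KO+R libraries were below all KO libraries, with a log2 fold change of −0.39 ± 0.11 (edgeR adjusted p = 0.144, and 0.0374 with the block). Mrpl18 stood at 29.9 and 37.8 CPM in WT+R and at 42.1, 48.4 and 44.8 in WT (−0.42 ± 0.13, edgeR adjusted p = 0.151, and 0.0545 with the block). It was thus lower with rapamycin in all 3 KO pairs and both WT pairs of libraries with the same number. Of the exonic bases of Mrpl18, 22.5% also belong to another gene, Tcp1 foremost, on the opposite strand.

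DESeq2 with the block called 3 genes for KO+R vs KO (12% of all genes), namely Mrpl18, Mrpl24 and Mrpl30. Mrpl24 went the other way. This gene (chr3:87826798-87832192, plus strand) encodes a large subunit protein near the exit of the tunnel. It was at 33.7, 30.6 and 29.2 CPM in KO and at 48.0, 36.3 and 38.4 in KO+R, with no overlap (0.39 ± 0.15, edgeR adjusted p = 0.293, and 0.0316 with the block), and at 45.7 and 41.8 CPM in WT+R against 36.6, 29.7 and 30.4 in WT. Of its exonic bases, 52.1% also belong to another gene, Mettl25b foremost, on the opposite strand, so the source of these reads is uncertain. Mrpl30, with no such overlap, was at 32.4, 27.8 and 32.1 CPM in KO and at 40.6, 39.1 and 38.9 in KO+R (0.36 ± 0.12, edgeR adjusted p = 0.203), but at 35.8 and 32.9 in WT+R, within the WT values of 36.4, 32.4 and 30.1. Mrpl17 was at 96.2, 100.0 and 95.8 CPM in KO and at 80.7, 73.2 and 69.0 in KO+R (−0.39 ± 0.14, edgeR adjusted p = 0.253).

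**Figure D4:**
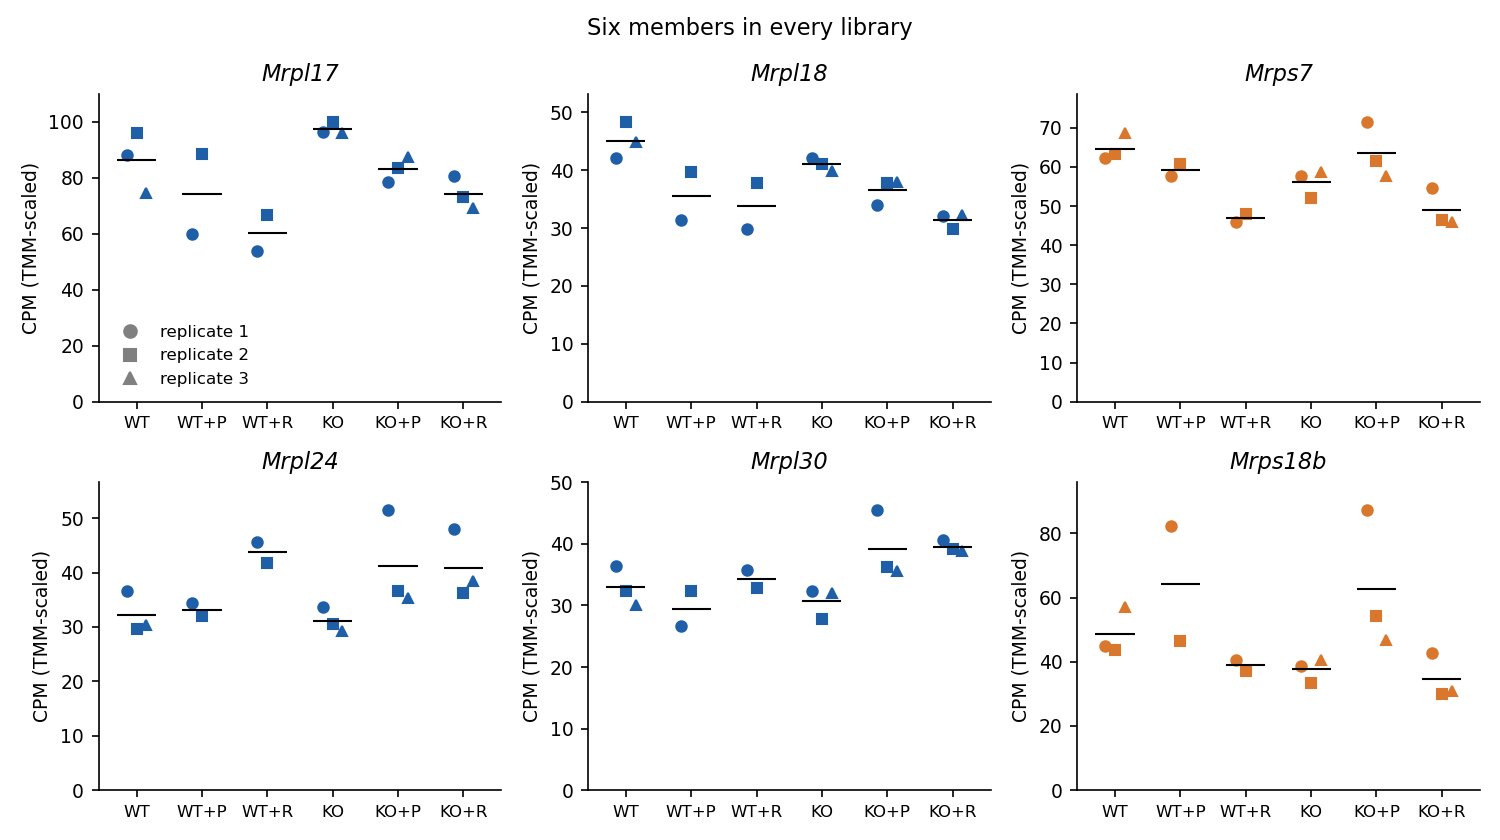
CPM of Mrpl17, Mrpl18, Mrps7, Mrpl24, Mrpl30 and Mrps18b in each library by group, with replicates as symbols and group means as bars. Mrpl17 and Mrpl18 are lower with rapamycin in both genotypes and Mrps7 in WT, Mrpl24 is higher in both genotypes, Mrpl30 is higher in KO+P and KO+R than in KO, and Mrps18b is highest in replicate 1 of both propranolol groups, at 82.4 and 87.3 CPM.

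The change with rapamycin was set side by side in the KO and WT genotypes, which share no library. Of the 78 genes, 44 were lower in both (56.4%, against 40.9% of all genes), 10 higher in both (12.8%, against 36.3%) and 24 opposite (30.8%, against 22.7%). Across the 78 genes the Pearson correlation was 0.78 and the Spearman correlation 0.67, as a description, since genes are not independent replicates. Across all genes tested they were 0.56 and 0.67. The interaction of rapamycin and genotype called 0 of the 78 with edgeR and DESeq2 (0% of all genes with edgeR). At an unadjusted p under 0.05 there were 0 (0.458% of all genes above and 0.303% below 0). The smallest p-values belonged to Mrps7 (0.26 ± 0.16), Mrpl30 (0.30 ± 0.18) and Mrps10, a small subunit protein (0.29 ± 0.18). Its median was 0.12, with 61 of 78 above 0 (48% of all genes). It was 0.05 with 51 above 0 without KO+R replicate 1, 0.18 with 71 above 0 without KO+R replicate 2, and 0.12 with 59 above 0 without WT replicate 1. Between KO+R and WT+R, 0 were called with edgeR or DESeq2 (0% of all genes with edgeR). An unadjusted p under 0.05 was found in 0 (3.07% of all genes were higher and 2.65% lower). In 9 genes the groups did not overlap with KO+R higher and in 2 with KO+R lower (9.43% and 9.79% of all genes). The median was 0.03 with 45 of 78 above 0 (47% of all genes), and −0.04 with 32 above 0 on the authors' TPM scale. The median difference was 0.21 in culture 1 and −0.13 in culture 2. The edgeR median turned to −0.08, with 23 of 78 above 0, without KO+R replicate 1 and was 0.11, with 57 above 0, without KO+R replicate 2. Here the smallest p-values belonged to Mrps36, since assigned to the oxoglutarate dehydrogenase complex (0.43 ± 0.20), Mrpl17 (0.30 ± 0.16) and Mrps35 (0.41 ± 0.23), all with an edgeR adjusted p of 0.898 or more.

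The scale mattered for rapamycin. On the authors' TPM scale, the 78 genes summed to 5383 and 5714 TPM in WT+R and to 5881, 5132 and 5320 in KO+R. All these values lay below those of the other 11 libraries, which were 6678, 6734 and 6837 in WT, 6260 and 6601 in WT+P, 6479, 6089 and 6301 in KO, and 7044, 6346 and 6246 in KO+P. Summed CPM after scaling by trimmed mean of M-values (TMM) separated in WT cells, with 2439 and 2452 in WT+R below 2831, 2744 and 2684 in WT and 2621 and 2649 in WT+P. It did not in KO cells, where KO+R stood at 2836, 2242 and 2359 and KO at 2758, 2435 and 2571. On the TPM scale the median of all genes itself moved by −0.13 for KO+R vs KO and −0.10 for WT+R vs WT. The 78 genes had medians of −0.21 and −0.27, with 10 and 6 of 78 above 0. The 93 cytosolic ribosomal protein genes held 132787 and 119805 TPM in WT+R and 147914, 119107 and 129112 in KO+R, against between 96061 and 138314 in the other libraries, and their part in the shift was not tested.

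In WT cells the values with propranolol lay close to 0 on average. None was called between WT+P and WT with edgeR or DESeq2 (0.00674% of all genes with edgeR, a single gene). At an unadjusted p under 0.05, 0 were higher and 3 lower (6.7% and 3.17% of all genes). The median was −0.06 (0 over all genes), with 24 of 78 above 0 (50.3% of all genes), and −0.16 and −0.03 within cultures 1 and 2. Without WT replicate 1 it was −0.04, with 30 of 78 above 0 and 0 calls. The endothelial markers summed to 6003 and 8343 TPM in WT+P, below all WT libraries, and their part in these values was not tested. Both WT+P libraries lay above all WT libraries in 5 genes and below in 12 (10.8% and 10.3% of all genes). Mrpl49 was at 31.8, 33.4 and 30.7 CPM in WT and at 21.6 and 25.4 in WT+P, with no overlap (−0.44 ± 0.17, edgeR adjusted p = 0.472). Mrpl18 was at 31.4 and 39.7 CPM in WT+P, below all its WT values (−0.34 ± 0.13, edgeR adjusted p = 0.473). Mrps21 was at 49.5, 44.3 and 44.9 CPM in WT and at 26.2 and 42.4 in WT+P (−0.43 ± 0.19, edgeR adjusted p = 0.497), so its difference rested largely on WT+P replicate 1. It was called (edgeR adjusted p = 0.0447, among 553 genes) without WT+P replicate 2, a fit in which WT+P replicate 1 stood alone and was assumed to vary like the other groups.

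In KO cells the genes leaned upward with propranolol, most of all in culture 1. None was called between KO+P and KO with edgeR or DESeq2 (0.00674% of all genes with edgeR, a single gene), while 8 were higher and 2 lower at an unadjusted p under 0.05 (6.93% and 5.67% of all genes). The median was 0.15 (−0.01 over all genes), with 61 of 78 above 0 (49.3% of all genes), 0.11 in the large and 0.17 in the small subunit. In 10 genes all KO+P libraries lay above all KO libraries and in 3 below (9.58% and 9.11% of all genes). The median difference was 0.25, 0.11 and 0.01 in cultures 1 to 3. DESeq2 with the replicate block called 2 genes (10.1% of all genes), Mrpl24 (adjusted p = 0.0133) and Mrps18b (adjusted p = 0.0174), both higher. KO+P replicate 1 had the highest summed CPM of all libraries (3242), and without it the median was 0, with 41 of 78 above 0, whereas it was 0.10 without KO replicate 2. In that library the endothelial markers summed to 6265 TPM against 7408 and 9367 in the other KO+P libraries, and the cytosolic ribosomal proteins to 138314 against 101788 and 109912. Their part in the result was not tested.

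Mrps18b, a paralogue of Mrps18a in the small subunit, was at 38.8, 33.5 and 40.6 CPM in KO and at 87.3, 54.4 and 46.7 in KO+P (0.74 ± 0.25, edgeR adjusted p = 0.325). All KO+P libraries were above all KO libraries, with the widest gap in culture 1. Of its exonic bases, 34.9% also belong to another gene, Gm16279 foremost, on the opposite strand. It was at 82.4 CPM in WT+P replicate 1 and at 46.4 in WT+P replicate 2, against 44.9, 43.6 and 57.1 in WT. The third paralogue, Mrps18c, was at 17.6, 18.6 and 21.3 CPM in KO and at 23.7, 17 and 18.4 in KO+P (0.04 ± 0.15), and 84% of its exonic bases lie in other genes, Abraxas1 foremost. Mrps30 was at 25.2, 22.6 and 24.6 CPM in KO and at 34.9, 32.7 and 27.1 in KO+P (0.39 ± 0.13, edgeR adjusted p = 0.315). All KO+P libraries were above all KO libraries and above the lowest WT library, at 26.7. Mrpl49 was at 31.7, 30.5 and 29.9 CPM in KO and at 19.7, 19.3 and 29.3 in KO+P (−0.43 ± 0.15, edgeR adjusted p = 0.325). It was lower in the first 2 cultures by 0.68 and 0.66 log2 units and by 0.03 in the third, and among the edgeR fits that left out 1 library it was called in the one without KO+P replicate 3 (edgeR adjusted p = 0.0207, among 355 genes).

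Between KO+P and WT+P, 0 genes were called with edgeR or DESeq2 (0% of all genes with edgeR). At an unadjusted p under 0.05, 4 were higher and 0 lower (2.7% and 3.48% of all genes). The median was 0.07 with 58 of 78 above 0 (46.5% of all genes), and −0.04 with 33 of 78 above 0 on the authors' TPM scale. Without KO+P replicate 1 the edgeR median was −0.02, with 35 of 78 above 0. It was between 0.11 and 0.14 without any other single library. Within cultures it was 0.30 and −0.02. All KO+P libraries lay above both WT+P libraries in 10 genes and below in 1 (7.8% and 8.77% of all genes). Mrpl30 was at 26.7 and 32.3 CPM in WT+P and at 45.5, 36.2 and 35.6 in KO+P (0.41 ± 0.14, edgeR adjusted p = 0.66). Mrpl27, a protein near the peptidyl transferase centre, was at 28.3 and 30.1 CPM in WT+P and at 37.9, 35.8 and 35.9 in KO+P (0.32 ± 0.13, edgeR adjusted p = 0.769), and Mrps36 at 12.9 and 16.3 against 24.0, 17.9 and 18.7 (0.47 ± 0.20, edgeR adjusted p = 0.779). In all 3 the groups did not overlap.

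The interaction of propranolol and genotype called 0 genes with edgeR or DESeq2 (0% of all genes with edgeR). Mrpl30 alone had an unadjusted p under 0.05 (0.51 ± 0.18, edgeR adjusted p = 1), against 0.377% of all genes above and 0.344% below 0. Next came Mrps7 (0.31 ± 0.16) and Mrpl53, a large subunit protein specific to mitochondria (0.35 ± 0.20). Its median was 0.18, with 73 of 78 above 0 against 46.2% of all genes. Without KO+P replicate 1 the median was 0.04, with 57 of 78 above 0, and without WT replicate 1 it was 0.18, with 70 above 0.

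Genes with particular tasks in translation were fixed by name, and none was called with edgeR in any comparison. Mrpl10, the base of the L7/L12 stalk, was at 51.4 ± 3.19 CPM in WT and 52.6 ± 2.61 in KO (SD, n = 3 each), and its log2 fold changes lay between −0.13 for WT+R vs WT and 0.10 for KO+P vs WT+P. Mrps12, at the decoding site, was at 36.8, 34.2 and 28.5 CPM in WT and 32.5, 27.4 and 28.7 in KO. Mrpl44, related to RNase III, was at 32.2, 27.9 and 29.3 CPM in WT and 32.3, 21.7 and 29.1 in KO, and Mrpl58, a peptidyl-tRNA hydrolase that rescues stalled ribosomes, at 30.8, 27.6 and 24.5 against 29.1, 18.5 and 24.7. In Mrps12, Mrpl44 and Mrpl58, KO replicate 2 was the lowest of its group, and WT and KO overlapped in all 4 genes. Mrpl45 was at 45.6, 43.4 and 57.7 CPM in WT and 42.2, 38.9 and 37.7 in KO, without overlap (log2 fold change −0.30 ± 0.17, edgeR adjusted p = 0.942).

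The genes were also split by whether the protein has a bacterial counterpart. The 45 conserved and 33 mitochondria-specific genes had medians of −0.14 and −0.18 for WT+R vs WT, −0.07 and −0.05 for KO+R vs KO, 0.13 and 0.16 for KO+P vs KO and −0.10 and −0.11 for KO vs WT. Without WT replicate 1 they were −0.15 and −0.18 for WT+R vs WT and −0.08 and −0.09 for KO vs WT.

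Other genes of the same machinery were described from fixed lists, with calls from edgeR without the replicate block unless stated. The 5 mitoribosomal proteins whose symbols fall outside the rule (Dap3, Ptcd3, Chchd1 and Aurkaip1 among them) had 0 calls in all comparisons, with medians of −0.20 for KO vs WT and −0.22 for WT+R vs WT (−0.21 and −0.07 without WT replicate 1). Of 28 genes for assembly of the mitochondrial ribosome, 0 were called in any comparison, and the smallest p-value was that of the rRNA methyltransferase Mrm1 for KO+P vs KO (0.67 ± 0.19, edgeR adjusted p = 0.264). Of 15 factors of mitochondrial translation, Mrrf, the ribosome recycling factor, was the only one called without the block. Oxa1l, on the same list, was called with the block for KO+R vs KO. Mrrf rose in WT+R vs WT by 1.02 ± 0.23 log2 units (edgeR adjusted p = 0.0469, and 0.0097 with the block). Mrrf was at 29.4, 27.6 and 31.8 TPM in WT, 66.4 and 47.5 in WT+R and 69 and 43.8 in WT+P, so that both drug groups lay above WT (WT+P vs WT 0.75 ± 0.23, edgeR adjusted p = 0.393). The call for WT+R vs WT was lost whichever library was left out. The log2 fold change was then 1.03, 1.00 and 1.02 without WT replicates 1 to 3 (edgeR adjusted p = 0.118, 0.112 and 0.119), 0.69 without WT+R replicate 1 (0.48) and 1.29 without WT+R replicate 2 (0.058). Of 15 tested genes for mitochondrial transcription and its nuclear regulators, 0 were called, and Gabpa, a subunit of GABP, had log2 fold changes of 0.34 ± 0.10 for KO+R vs KO (edgeR adjusted p = 0.134, and 0.0411 with the block) and 0.35 ± 0.11 for WT+R vs WT (edgeR adjusted p = 0.157).

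The genes that the mitochondrial ribosome serves were also read. The 13 mRNAs of mitochondrial DNA had 0 calls with edgeR. At an unadjusted p under 0.05, 5 were higher and 0 lower for KO vs WT (3.3% and 2.77% of all genes). Their medians were 0.48 for KO vs WT, 0.21 for KO+R vs KO and 0.19 for WT+R vs WT, of the opposite sign to those of the 78 genes. For KO+R vs KO the median of the 78 genes was 0.06 without KO+R replicate 2, so its sign was not stable. mt-Nd2, a subunit of complex I, had the smallest p-value for KO vs WT (0.50 ± 0.18, edgeR adjusted p = 0.626). The rRNAs mt-Rnr1 and mt-Rnr2 were uneven between libraries of this poly(A) protocol, with 35.2 and 49.4 TPM in KO+P replicate 3 against 295 or more in all other libraries. The 82 tested nuclear subunits of oxidative phosphorylation had 0 calls with edgeR. With the block, 2 were higher and 1 lower for KO+R vs KO (3.17% and 3.77% of all genes). For WT+R vs WT, 1 was higher and 2 were lower with the block (2.97% and 2.82% of all genes). The medians were −0.08 for KO vs WT, −0.03 for KO+R vs KO, −0.10 for WT+R vs WT and −0.20 for WT+P vs WT. Without WT replicate 1 these were 0.00 for KO vs WT, −0.03 for WT+R vs WT and −0.13 for WT+P vs WT.

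In the rapamycin groups the cytosolic ribosomal protein genes lay on the other side of 0. Of 87 tested, 84 were above 0 for KO+R vs KO (46.8% of all genes), with a median of 0.51, and 1 was called (1.7% of all genes). With the block 39 were called, 0 of them lower (3.17% of all genes were higher and 3.77% lower). For WT+R vs WT, 76 of 87 were above 0 (48.5% of all genes), with a median of 0.36 (0.49 without WT replicate 1) and 0 calls (1.48% of all genes). With the block 7 were called (2.97% of all genes were higher and 2.82% lower). The corresponding medians of the mitochondrial ribosomal protein genes were −0.07 and −0.17. The first of these was not stable in sign, at 0.06 without KO+R replicate 2 and 0 without KO replicate 1. In KO+P vs KO both lists were above 0, with medians of 0.26 and 0.15. The difference between the lists was not tested.

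**Figure D5:**
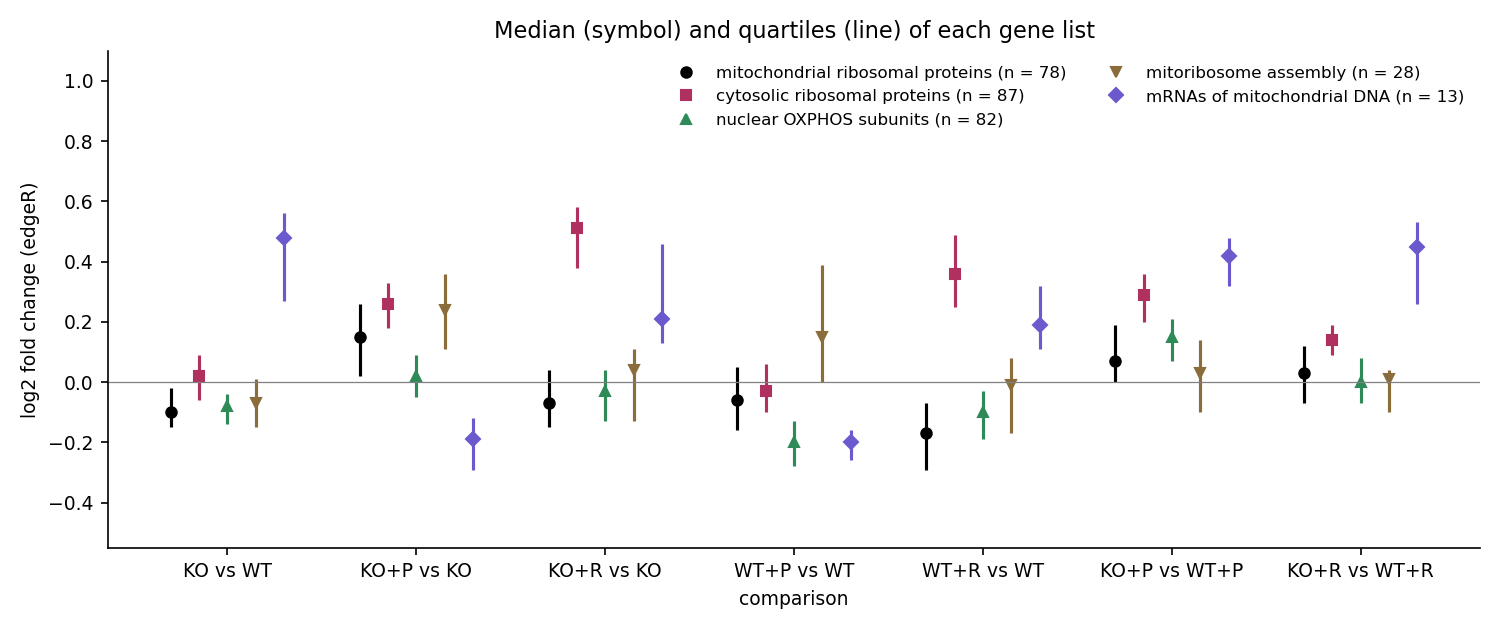
Median (symbols) and quartiles (lines) of the log2 fold change (edgeR) in 5 gene lists for the 7 comparisons. Cytosolic ribosomal proteins are at 0.51 and 0.36 for KO+R vs KO and WT+R vs WT, where the mitochondrial ribosomal proteins are at −0.07 and −0.17, and the mRNAs of mitochondrial DNA are highest in the KO groups relative to WT.

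Proliferation genes were read as a further list. The 16 proliferation genes had medians of −1.22 for KO+P vs KO, −1.27 for KO+R vs KO, −0.49 for WT+P vs WT and −0.70 for WT+R vs WT, with 0 calls with edgeR. With the block, 6 were called lower for KO+R vs KO (3.77% of all genes) and 1 for WT+R vs WT (2.82% of all genes). Without WT replicate 1 the medians were −0.87 for WT+P vs WT and −1.13 for WT+R vs WT. Their part in the values of the 78 genes was not tested.

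Not all reads of these genes came from transcripts annotated as coding. The 78 genes had 342 transcripts in the files, 169 of them annotated as protein_coding, and these held between 85.0 and 87.4% of the genes' TPM in each library. In 65 genes the most abundant transcript was protein_coding and in 13 it was not. In 5 genes fewer than 50% of the counts lay in protein_coding transcripts, namely Mrpl3 (20.7%), Mrps16 (33%), Mrps26 (36.5%), Mrpl32 (36.8%) and Mrps14 (44.1%). With protein_coding transcripts alone, 0 genes were called in any comparison and the median was −0.17 for WT+R vs WT, −0.03 for KO+R vs KO and 0.15 for KO+P vs KO. Exons overlapped those of another gene in 42 of the 78, by more than 10% in 20 and by more than 50% in 5.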

How the data were processed

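The 16 poly(A) RNA-seq libraries were grouped by genotype and drug from the labels. Per the labels' processing notes, the authors trimmed reads with Trim Galore 0.6.7 and deposited Salmon 1.5.2 output for GRCm39, in which the expected count (NumReads) and the TPM (abundance per effective length, scaled to a fixed total) of each transcript were estimated by the authors without strand. The study's methods describe gene counts by HTSeq, not used here. The expected counts deposited for 140789 transcripts were summed per gene with GENCODE names (99.12% named, with between 99.43 and 99.61% of counts), rounded and filtered (filterByExpr, 14838 genes). TMM scaling (factors 0.934 to 1.041) and one quasi-likelihood fit over 6 groups (10 residual df) were done with edgeR 4.0.16 in R 4.3.3, with Benjamini-Hochberg adjustment over all genes tested and calls at an adjusted p under 0.05. CPM values were scaled by TMM, log2 CPM had a prior count of 2, and log2 TPM a pseudocount of 0.5. Of these steps, the edgeR fit without the block was tested on simulated counts, for KO+R vs KO and WT+R vs WT. The simulated libraries were independent, without a shared deviation of libraries of one number. The blocked fit, DESeq2, the interactions and the ratios were not tested in this way. DESeq2 1.42.0, the replicate block, effective lengths, no filter, protein_coding transcripts and leaving out each library were alternatives, and the TPM scale and, without WT replicate 1, a blocked fit and DESeq2 with and without the block were added after seeing the data. The gene set, lists and naming rule were chosen with earlier results of these data known. Named were, per comparison, genes called (also with the block) or the 3 smallest p, the 3 highest and lowest levels, the 3 largest and smallest SDs, and genes of fixed roles. The labels call the replicates biological and the study describes them as independent cultures, each from pooled brains. Without the block, p-values measure the spread between libraries of a group. That fit takes all libraries as independent, although libraries of one number deviated together over all genes. With the block, p-values measure the spread left after the replicate number.

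Replicate numbers were checked for pairing. Deviations from group means correlated between libraries of one number by 0.19 to 0.62 for KO vs WT, 0.31 to 0.58 for KO+P vs KO, 0.41 to 0.62 for KO+R vs KO, 0.49 to 0.56 for WT+P vs WT, 0.6 to 0.69 for WT+R vs WT, 0.45 to 0.68 for KO+P vs WT+P and 0.5 to 0.56 for KO+R vs WT+R, with medians of 0.52 over 36 pairs of one number and −0.23 over 70 pairs of different numbers. These are over all genes, and over the 78 genes alone the values were −0.69 to 0.80 with a median of 0.17. Deviations from a group mean cancel within the group, so the value for different numbers follows in part from that for one number. It is not separate evidence of pairing, and the pairs share libraries. The pairing thus rests on the values and not on the labels, and the WT+P and WT+R groups give only 2 pairs each.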

Additional observations from a re-analysis of the deposited data

Results flagged for a closer look

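Some results had every KO culture move one way under a drug and every WT culture the other. For propranolol, the median over the 78 genes was above 0 in the KO cultures (0.01 to 0.25 in log2 CPM) and below 0 in the WT cultures (−0.16 and −0.03), with a median interaction of 0.18 on the log2 scale. This median has no test of its own, and it was 0.04 without KO+P replicate 1. In KO culture 3, 39 genes were higher and 39 lower, and on the authors' TPM scale the median there was −0.02, with −0.02 and −0.01 in the WT cultures, so that the genotypes were not opposite on that scale.

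For 5 named genes, edgeR's interaction term gave an adjusted p of 1. Mrpl30 changed by 0.15 to 0.49 with propranolol in KO cultures and by −0.45 and −0.01 in WT cultures (interaction 0.51). Mrpl33, the most abundant of the 78 by TPM, changed by 0.13 to 0.42 in KO cultures and by −0.14 and −0.10 in WT cultures (interaction 0.28). Mrps12 changed by 0.02 to 0.41 and by −0.19 and −0.14 (interaction 0.30). With rapamycin, Mrpl58 changed by 0.12 to 0.20 in KO cultures and by −0.33 and −0.22 in WT cultures (interaction 0.35), and Mrps35 by 0.11 to 0.23 and by −0.34 and −0.18 (interaction 0.40). Over all 78 genes, 4 moved up in all KO cultures and down in both WT cultures with propranolol (2.2% of all genes) and 2 with rapamycin (1.34% of all genes), with 0 the other way round (2.22% and 1.83% of all genes). The WT change of culture 1 uses WT replicate 1. Without that library the interaction was 0.45 for Mrpl30, 0.29 for Mrpl33 and 0.23 for Mrps12 with propranolol, and 0.28 for Mrpl58 and 0.22 for Mrps35 with rapamycin, all with an edgeR adjusted p of 1.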

How the results depend on the processing

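Some of the 363 alternative values moved from the reported value, and the cause was not tested. The replicate block, as pairing by culture, called 2 of the 78 genes for KO+R vs KO and 4 for WT+R vs WT (0 for WT+R vs WT also without WT replicate 1), and changed no other call. DESeq2 called 1 for WT+R vs WT (4.57% of all genes), and DESeq2 with the block called 2 for KO+P vs KO (10.1%), 3 for KO+R vs KO (12%) and 7 for WT+R vs WT (9.53%). Without WT replicate 1, DESeq2 called 1 (3.44%) and DESeq2 with the block 4 (6.21%) for WT+R vs WT. On the authors' TPM scale the median for KO+R vs KO went from −0.07 to −0.21. The ratio of large to small subunit TPM went from 2.13 to 2.28 with Mrps30 and Mrps18a as large subunit, to 2.32 with protein_coding transcripts and to 1.08 as a ratio of median genes.

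The difference of the large and small subunit medians was small throughout. For KO+R vs WT+R it went from −0.04 to −0.01 with the block and with DESeq2 and the block, to 0.00 with effective lengths and with protein_coding transcripts, and to 0.01 on the TPM scale. For KO+P vs KO it went from −0.06 to −0.09 with effective lengths and −0.01 with Mrps30 and Mrps18a as large. With protein_coding transcripts it was −0.02 for KO vs WT, 0.01 for KO+R vs KO and −0.04 for WT+P vs WT, and on the TPM scale 0.00 for KO+R vs KO. Leaving out each replicate, it ranged from −0.02 to 0.04 for KO vs WT, −0.09 to 0.00 for KO+P vs KO, −0.05 to 0.00 for KO+R vs KO, −0.08 to −0.03 for WT+P vs WT, −0.05 to 0.02 for WT+R vs WT, 0.01 to 0.06 for KO+P vs WT+P and −0.04 to 0.01 for KO+R vs WT+R.

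Leaving out each replicate, the median over the 78 genes ranged from 0.00 to 0.22 for KO+P vs KO, and 0 to 1 genes were called for KO+P vs KO (Mrpl49, without KO+P replicate 3) and for WT+P vs WT (Mrps21, without WT+P replicate 2). With 2 or 3 libraries per group, the median standard error of a log2 fold change was 0.15 to 0.17, so a change of the size of the medians could not be shown for a single gene.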

Other observations

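The assembly genes of the mitochondrial ribosome had a median log2 fold change of 0.24 for KO+P vs KO and 0.15 for WT+P vs WT. Of the 28, 23 and 21 were above 0 (49.3% and 50.3% of all genes), and 0 were called with edgeR. At an unadjusted p under 0.05 there were 5 and 1, all higher (6.93% and 6.7% of all genes were higher). Mrm1 was 0.67 ± 0.19 and 0.52 ± 0.21 in these comparisons. It was highest in replicate 1, at 20.3, 15.6 and 13.4 TPM in KO+P and at 19.2 and 12.3 in WT+P. Gtpbp6 was at 103, 50 and 34.3 TPM in KO+P and at 103 and 27.7 in WT+P, against 38.7, 28.3 and 30.1 in WT. Not every gene of the list was highest there, as Mrm2 was at 8.85 TPM in WT+P replicate 1 and 11.2 in replicate 2. How far the medians of this list rest on replicate 1 was not tested. Mrrf, at 1.02 ± 0.23 in WT+R vs WT and 0.75 ± 0.23 in WT+P vs WT, was 0.37 ± 0.21 for KO+R vs KO (edgeR adjusted p = 0.514), and its interaction of rapamycin and genotype was −0.65 ± 0.31 (edgeR adjusted p = 1). For the inner membrane insertase Oxa1l the block called KO+R vs KO at 0.50 on the log2 scale (edgeR adjusted p = 0.0134).

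Across the 78 genes, the changes with propranolol in KO and in WT cultures, which share no library, had a Pearson correlation of 0.44 and a Spearman correlation of 0.66, as a description. Across all genes tested they were 0.47 and 0.63. Of the 78 genes, 23 were higher in both genotypes (29.5%, against 36.9% of all genes), 16 lower in both (20.5%, against 37.2%) and 39 opposite (50%, against 25.8%).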
